A study of Cricetiscus sungorus with 16 samples.

Results

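Tyrosine is broken down in 5 enzymatic steps, and the probes for the 5 enzymes were followed here in the ovaries of Siberian hamsters raised in short or long days. The enzymes, in the order of the pathway, are Tat, Hpd, Hgd, Gstz1 and Fah. They were found by their mouse RefSeq identifiers, NM_146214 for Tat, NM_008277 for Hpd, NM_013547 for Hgd, NM_010363 for Gstz1 and NM_010176 for Fah. Each had 1 probe, printed as 1 spot, among the 41174 probes of the array. The set was selected on the level of the Hgd probe, which was far brighter in short-day ovaries at 8 wk of age than at 3 wk, and the question was whether the other enzymes of the pathway followed. Those Hgd values therefore describe how the set was chosen and are given without a test.

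In the pathway, tyrosine aminotransferase (Tat) removes the amino group of tyrosine, and hydroxyphenylpyruvate dioxygenase (Hpd) turns the product into homogentisate. Homogentisate dioxygenase (Hgd) opens the ring, maleylacetoacetate isomerase (Gstz1) rearranges the product, and fumarylacetoacetase (Fah) splits it into fumarate, which feeds the citric acid cycle, and acetoacetate, a ketone body. The pathway is best known from the liver, and in people the inherited loss of HGD causes alkaptonuria while the loss of FAH causes a severe tyrosinaemia.

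The study asked how day length from gestation on alters gene expression in the maturing ovary. There were 4 groups of 4 female hamsters. SD ovaries came from hamsters gestated and kept in short days with 10 h of light and taken at 8 wk or at 3 wk of age, and LD ovaries came from hamsters gestated and kept in long days with 16 h of light and taken at 8 wk or at 3 wk. Both ovaries of each hamster gave 1 RNA sample, which was labelled with Cy3 and hybridised to a 1-colour Agilent mouse array. For the SD hamsters at 8 wk the sample descriptions give 10 h of light, while their titles and treatment labels give 16 h beside the abbreviation SD. They were treated as short-day animals. The arrays carry mouse probes, and whether a hamster signal came from the matching transcript was not tested. The files pair no identifiers with gene symbols, so the labelled tissue was not checked against ovarian markers.

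The 16 arrays lay on 4 slides, each slide carrying 1 array of every group, and each group held the same place on every slide, so place and group cannot be told apart. Arrays of a group are given below in the order of slides 1 to 4. Between 58.0% and 75.7% of the probes of an array were well above background, by the scanner software's own flag, and no spot was saturated. Levels are log2 of the processed signal less log2 of the array's 75th percentile, so that 0 is the signal below which 75% of an array's probes lie. They compare 1 probe between arrays and do not rank the enzymes against each other. Overlap between groups was looked at for these enzymes only, and its share over all identifiers was not counted. The arrays hold RNA of whole ovaries, so a larger share of expressing cells and more RNA per cell cannot be told apart.

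Tat, Hpd, Hgd and Fah, 4 of the 5, were well above background on all 16 arrays, and Gstz1 on 8 of 16. In SD ovaries at 8 wk Fah was higher beside Hgd, whereas no difference passed the test for Tat or Hpd. The plot of levels on each array shows these patterns for all 5 enzymes.

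**Figure D1:**
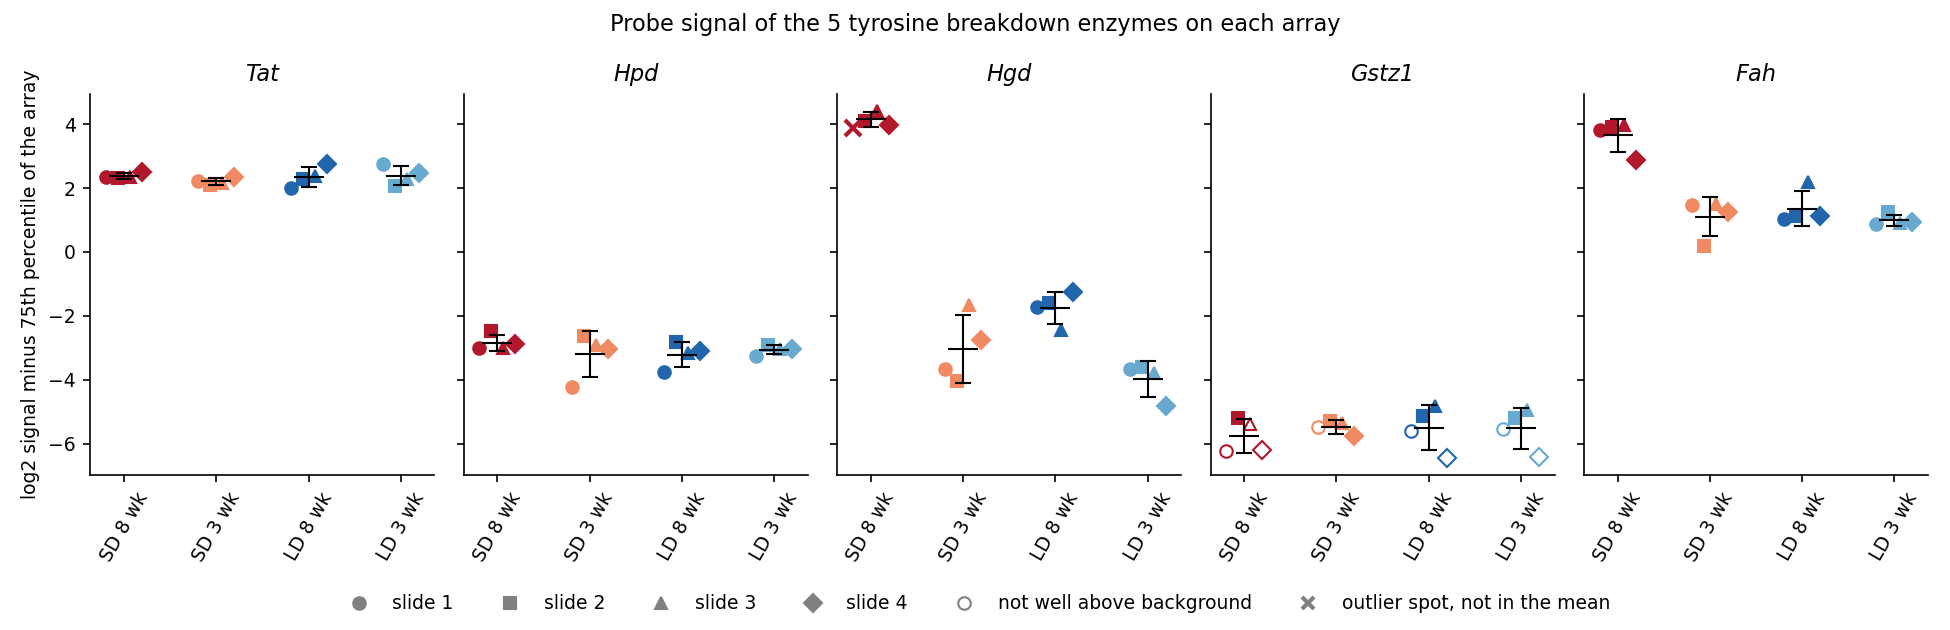
Level of each enzyme's probe on each array (log2 signal minus the array's 75th percentile, vertical axis) in the 4 groups, with the mean and SD as black bars. Marker shapes stand for slides, open markers for spots not well above background, and the cross for an Hgd spot marked as an outlier and left out of the mean. Hgd and Fah stand apart in SD ovaries at 8 wk, Tat and Hpd overlap between all groups, and Gstz1 lies near background.

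Tat, which takes the first step, was bright, with no difference between groups that passed. Its levels in SD ovaries were 2.34, 2.31, 2.33 and 2.51 at 8 wk, against 2.22, 2.10, 2.17 and 2.34 at 3 wk. In LD ovaries they were 1.998, 2.27, 2.37 and 2.75 at 8 wk, against 2.75, 2.06, 2.30 and 2.46 at 3 wk. All groups overlapped, and the 4 LD arrays of each age spread more widely than the SD arrays. The group means were 2.37 ± 0.09 in SD at 8 wk, 2.21 ± 0.10 in SD at 3 wk, 2.35 ± 0.31 in 8-wk LD ovaries and 2.39 ± 0.29 in 3-wk LD ovaries (SD, n = 4 each). The spots stood 21.8 to 111 times over their local background, so nearness to background did not limit this probe.

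Hpd, the dioxygenase of the second step, was dim and also without a difference that passed. Its levels in SD ovaries were −3.00, −2.47, −3.01 and −2.88 at 8 wk, against −4.23, −2.62, −2.90 and −3.04 at 3 wk. In LD ovaries they were −3.74, −2.83, −3.17 and −3.11 at 8 wk, against −3.24, −2.90, −3.05 and −3.02 at 3 wk. Every pair of groups overlapped, and the lowest array of SD at 3 wk and of LD at 8 wk was that of slide 1. The means were −2.84 ± 0.25 in SD at 8 wk, −3.20 ± 0.71 in SD at 3 wk, −3.21 ± 0.38 in 8-wk LD ovaries and −3.05 ± 0.14 in 3-wk LD ovaries (SD, n = 4 each). Over the 4 groups, the mean deviation from the group mean was −0.48 on slide 1 and 0.37 on slide 2. Of the sum of squares of Hpd over the arrays, 58.0% lay between slides and 13.8% between groups. The spots were 1.28 to 4.48 times as bright as their local background, which leaves this probe open to errors in the background.

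Hgd, which opens the aromatic ring, had the widest range of the set. In SD ovaries at 8 wk its levels on slides 2 to 4 were 4.09, 4.42 and 3.96. The spot on slide 1 was marked as an outlier by the scanner software and was left out. Its level would have been 3.88, beside the other 3. In SD ovaries at 3 wk the levels were −3.65, −4.05, −1.67 and −2.74. The ages did not overlap, and at 3 wk the arrays of slides 3 and 4 lay above those of slides 1 and 2. In LD ovaries the levels were −1.72, −1.59, −2.43 and −1.25 at 8 wk, against −3.67, −3.61, −3.79 and −4.83 at 3 wk. Here too the ages did not overlap, with a gap of 1.18 between the lowest array at 8 wk and the highest at 3 wk.

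The Hgd group means were 4.16 ± 0.23 in SD at 8 wk (SD, n = 3), and −3.03 ± 1.06 in SD at 3 wk, −1.74 ± 0.50 in 8-wk LD ovaries and −3.98 ± 0.57 in 3-wk LD ovaries (SD, n = 4 each). From highest to lowest the order was SD at 8 wk, LD at 8 wk, SD at 3 wk and LD at 3 wk. The first step down was without overlap, while LD at 8 wk overlapped SD at 3 wk, and SD at 3 wk overlapped LD at 3 wk. In processed signal, which is not scaled between arrays, Hgd ran between 13211 and 19894 in SD at 8 wk, against 21.7 to 307 in SD at 3 wk. The outlier spot of slide 1, left out at 8 wk, was at 5371, and the 21.7 at 3 wk is also from slide 1. It ran between 81.8 and 362 in LD at 8 wk, against 29.0 to 60.2 in LD at 3 wk. The Hgd spot was 227 to 306 times as bright as its local background on the 3 arrays used in SD at 8 wk (101 times for the outlier spot), 1.55 to 5.95 times in SD at 3 wk, 2.39 to 7.50 times in 8-wk LD ovaries and 1.56 to 2.51 times in 3-wk LD ovaries. The low side of each Hgd difference therefore rests on dim spots, which came nearest to background at 3 wk.

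Gstz1, the isomerase after Hgd, was near the limit of the arrays. It was well above background on 1 of 4 arrays in SD at 8 wk, 3 of 4 in SD at 3 wk, 2 of 4 in 8-wk LD ovaries and 2 of 4 in 3-wk LD ovaries. Since no group had it well above background on all 4 arrays, it did not pass the filter and was not tested. The measured means were −5.75 ± 0.52 in SD at 8 wk, −5.47 ± 0.21 in SD at 3 wk, −5.50 ± 0.70 in 8-wk LD ovaries and −5.51 ± 0.65 in 3-wk LD ovaries (SD, n = 4 each). The spot was 1.17 to 2.14 times as bright as its local background over the 16 arrays. In a fit with no filter the difference between SD at 8 wk and SD at 3 wk was −0.28 (SE 0.39, 95% interval −1.10 to 0.55), on signals near background in both groups.

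Fah, which splits the last intermediate, was the enzyme whose short-day change passed the test. Its levels in SD ovaries were 3.82, 3.90, 3.98 and 2.88 at 8 wk, against 1.48, 0.20, 1.51 and 1.24 at 3 wk. In LD ovaries they were 1.02, 1.12, 2.19 and 1.11 at 8 wk, against 0.86, 1.24, 0.90 and 0.94 at 3 wk. All 4 SD arrays at 8 wk lay above the other 12, the lowest of them that of slide 4, while the other 3 groups overlapped each other. How many other identifiers part the groups in this way was not counted. The means were 3.65 ± 0.51 in SD at 8 wk, 1.11 ± 0.62 in SD at 3 wk, 1.36 ± 0.56 in 8-wk LD ovaries and 0.99 ± 0.17 in 3-wk LD ovaries (SD, n = 4 each). From highest to lowest the order of means was SD at 8 wk, LD at 8 wk, SD at 3 wk and LD at 3 wk, the same order as for Hgd. For Fah the differences among the last 3 groups were within the spread of the arrays. The Fah spot was well clear of background on every array, at 11.5 to 304 times its local background. Its processed signal ran between 5165 and 14735 in SD at 8 wk, 760 and 2795 in SD at 3 wk, 544 and 4551 in LD at 8 wk, and 671 and 1809 in LD at 3 wk. Groups held 86.5% of the sum of squares of Fah over the arrays, slides 3.98% and the rest 9.48%.

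The first comparison was between ages in short days. Tests were made with limma over the 20143 identifiers that were well above background in 1 group or more, on each of its arrays. With outlier spots left out, each also had to be measured on at least 12 arrays, at least 2 a group and 2 a slide. The p-values were adjusted over all of these identifiers by the Benjamini-Hochberg method and called at 0.05. Of the 3 enzymes tested apart from Hgd, 1 was called and it was higher at 8 wk, beside 4.77% of all identifiers called higher, or 10.9% with slide as a block. That enzyme was Fah, 5.81-fold higher in SD at 8 wk than in SD at 3 wk (log2 2.54, SE 0.32, 95% interval 1.86 to 3.22, limma adjusted p = 0.000144). Within slides the Fah difference was 2.35, 3.70, 2.47 and 1.64 on slides 1 to 4, positive on each. The Fah difference was the 53rd highest of the 20143.

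Hpd differed by 0.35 between SD at 8 wk and SD at 3 wk (SE 0.29, 95% interval −0.26 to 0.97, limma adjusted p = 0.600). On slide 1 the Hpd difference was 1.23, and it was as low as −0.11 on another slide. Tat differed by 0.17 (SE 0.17, 95% interval −0.19 to 0.52, limma adjusted p = 0.702), with values between 0.13 and 0.21 on the 4 slides. The Tat interval covers folds from 0.877 to 1.44, and that of Hpd folds from 0.835 to 1.96, so for neither is a lack of change shown. With slide as a block the limma adjusted p was 0.209 for Hpd and 0.435 for Tat. Hgd itself, which chose the set, differed by 7.19 (SE 0.46), a 146-fold difference and the highest of all identifiers, with 6.09 to 8.14 on the 3 slides that had both arrays. That size rests on spots near background at 3 wk. It was 6.18 with plain subtraction of the local background and 5.57 with normexp, a model-based background correction. Both corrections added an offset of 50, which by itself shrinks a difference from dim spots. The median over the 3 enzymes other than Hgd was that of Hpd, 0.35, and the median over all identifiers was 0.00. That Hpd value rests largely on slide 1, without which it was 0.06, below the 0.18 of Tat.

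**Figure D2:**
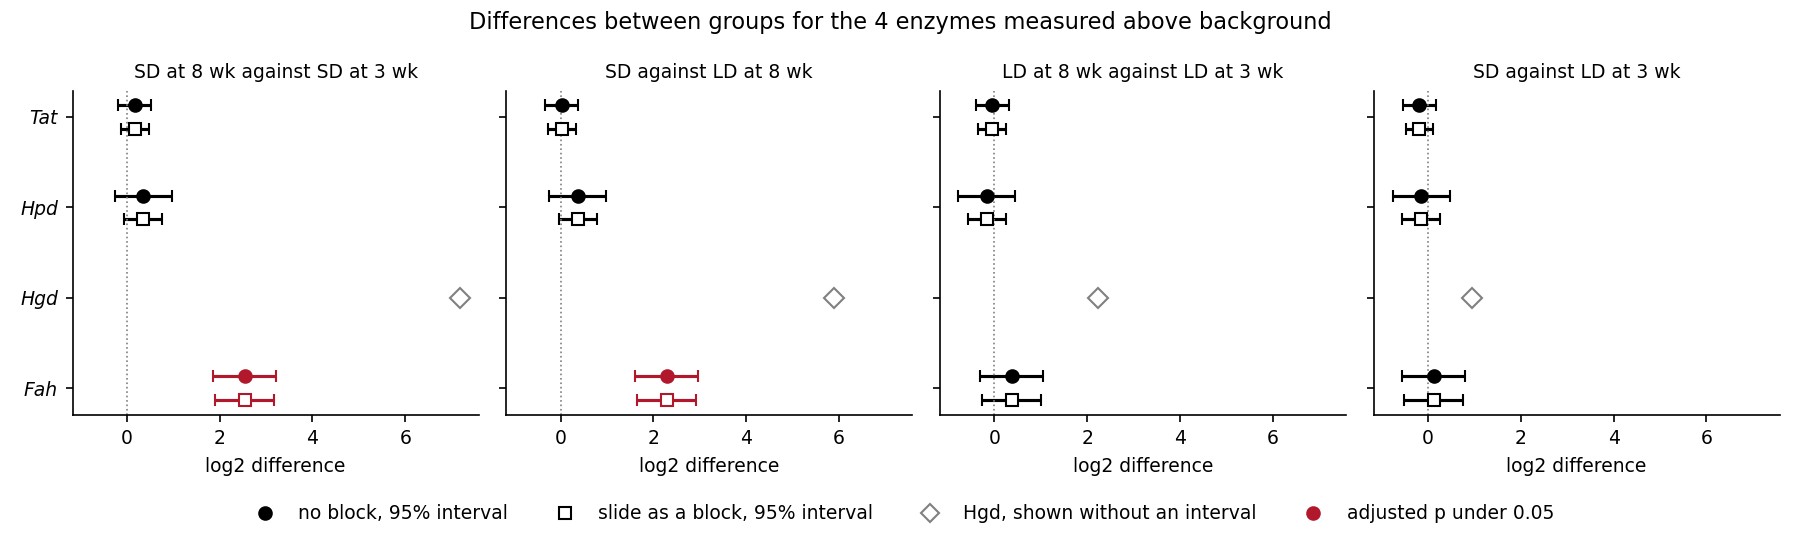
Log2 differences between groups (horizontal axis) for the 4 enzymes measured above background, with 95% intervals from limma without a block (circles) and with slide as a block (squares). Hgd is drawn as a diamond with no interval. Fah lies at 2.54 and 2.29 in the first 2 panels, drawn in red for an adjusted p under 0.05, and every other interval drawn includes 0.

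The second comparison was between photoperiods at 8 wk. It uses the same 4 SD arrays at 8 wk as the comparison of ages, so the values below are not separate evidence for that group's levels. Again 1 of the 3 enzymes was called and it was higher in SD, beside 0.735% of all identifiers called higher, or 1.82% with slide as a block. Fah was 4.88-fold higher in SD than in LD at 8 wk (log2 2.29, SE 0.32, 95% interval 1.61 to 2.96, limma adjusted p = 0.00155). The lowest Fah level in SD lay 0.69 above the highest in LD. Within slides the difference was 2.81, 2.78, 1.79 and 1.77 on slides 1 to 4. On slide 3 the LD array stood above its group at 2.19, and on slide 4 the SD array stood below its group at 2.88. The Fah difference ranked 43rd highest of all identifiers.

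Hpd was higher in SD than in LD on 4 of 4 slides at 8 wk, by 0.17 to 0.74, but its difference of 0.37 did not pass (SE 0.29, 95% interval −0.24 to 0.99, limma adjusted p = 0.9998, or 0.414 in the fit blocked by slide). Tat differed by 0.03 (SE 0.17, 95% interval −0.33 to 0.38, limma adjusted p = 0.9998), higher in SD on 2 of 4 slides. Hgd differed by 5.90 (SE 0.46), or 59.8-fold, and by 5.21 to 6.85 on 3 slides. It differed by 5.46 under plain background subtraction and 4.83 under normexp, each with the offset of 50. The distribution of differences over all identifiers shows Hgd at its end, Fah on its upper flank, and Tat and Hpd in its body.

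**Figure D3:**
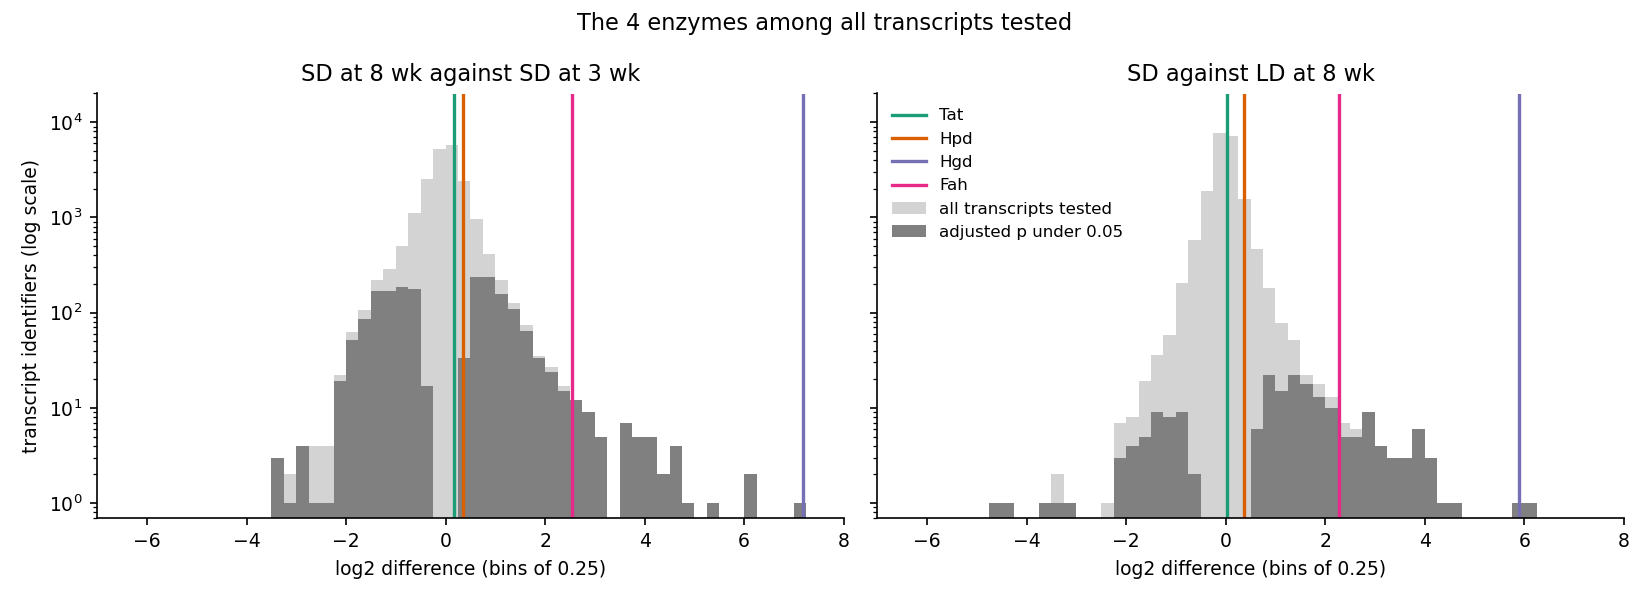
Number of identifiers (vertical axis, log scale) in bins of 0.25 of the log2 difference (horizontal axis) among all 20143 tested, with those of adjusted p under 0.05 in dark grey. Vertical lines mark the 4 enzymes. In SD at 8 wk against SD at 3 wk, 52 identifiers had a higher difference than Fah, and in SD against LD at 8 wk, 42 had one.

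In long days none of the 3 enzymes was called between ages. Beside them, 1.21% of all identifiers were called higher (3.93% with slide as a block) and 1.78% lower (7.96% with slide as a block). None of the 3 had an unadjusted p under 0.05 in limma, and none was called with slide as a block. Fah differed by 0.37 between LD at 8 wk and LD at 3 wk (SE 0.32, 95% interval −0.30 to 1.05, limma adjusted p = 0.744). On slide 3 the Fah difference was 1.29, and on the other slides it lay between −0.12 and 0.17. Hpd differed by −0.16 (95% interval −0.78 to 0.45) and Tat by −0.04 (95% interval −0.40 to 0.31).

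The rule that chose the set used the Hgd change in short days and not the long-day arrays, so the Hgd change in LD is given with its test, although it too was known when the set was chosen. Hgd was 4.70-fold higher in LD at 8 wk than in LD at 3 wk (log2 2.23, SE 0.43, 95% interval 1.32 to 3.15, limma adjusted p = 0.0122), with an adjusted p of 0.00924 when slide was a block. Within slides the difference was 1.96, 2.03, 1.36 and 3.58 on slides 1 to 4. The largest came from slide 4, whose LD array at 3 wk had the lowest Hgd level of all, −4.83. All LD spots at 3 wk were within 2.51 times their local background. The size of this Hgd change therefore depends on how background and any added offset are handled. It was 1.27 when the local background was plainly subtracted and 50 added (limma adjusted p = 0.0200). The added 50 by itself shrinks a difference from dim spots, and its share of the drop was not tested. The Hgd change was 1.23 with normexp and was no longer called (limma adjusted p = 0.99995). Normexp called 0 of all identifiers in this comparison, against 601 in the main analysis. Its fitted background mean was under −200 on 5 arrays. The lost call therefore does not single out Hgd. Hgd thus rose with age in long days in the main analysis while Fah did not pass, but a difference between these enzymes in long days was not tested.

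At 3 wk none of the 3 enzymes was called between photoperiods, beside 0% of all identifiers called, and none had an unadjusted p under 0.05 in limma. Fah differed by 0.12 between SD and LD (95% interval −0.55 to 0.80), Hpd by −0.14 and Tat by −0.19. Slides disagreed for Fah, with a difference of −1.04 on slide 2 and of 0.30 to 0.62 on the other 3. Hgd differed by 0.95 (SE 0.43) and parted the slides, with 0.02 and −0.44 on slides 1 and 2 and 2.12 and 2.08 on slides 3 and 4.

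A test of the age change in SD against that in LD called none of the 3 enzymes, beside 0.0546% of all identifiers called more positive in SD, or 0.164% with slide as a block. For Fah the SD change exceeded the LD change by 2.16 (SE 0.45, 95% interval 1.21 to 3.12). Its unadjusted p in limma was 0.000200, but the limma adjusted p was 0.149, or 0.0742 with slide as a fixed block and 0.0179 with slide as a random block. The excess was positive on each of the 4 slides, at 2.19, 3.82, 1.18 and 1.48 on slides 1 to 4. Of the 16 fits that left out an array, 2 passed, with limma adjusted p up to 0.362 over all 16. They were those without LD replicate 3 at 8 wk (2.44, limma adjusted p = 0.0259) and without SD replicate 4 at 8 wk (2.42, limma adjusted p = 0.0269). Both of these arrays stood off their groups toward a smaller Fah difference. Without slide 1 the Fah excess was still 2.16, with a limma adjusted p of 0.476 and 4 of all identifiers called. With normexp the limma adjusted p was 0.99999. Normexp called 0 of all identifiers in this test, against 12 in the main analysis, so its adjusted p does not single out Fah. A photoperiod-dependent age change of Fah is therefore not established at the threshold used. The excess was 0.52 for Hpd (95% interval −0.35 to 1.38) and 0.21 for Tat (95% interval −0.29 to 0.71). For Hgd it was 4.95 (SE 0.63), between 3.13 and 6.11 on the 3 slides measured. That value holds the SD change that chose the set and is given without a test.

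Ratios of enzymes within an array do not depend on how arrays were scaled to each other. They were taken after the levels had been seen, as log2 of the signal of a probe over that of another, so they describe the same arrays again and are given without a test. Fah over Tat was 1.27 ± 0.61 in SD at 8 wk, against −1.10 ± 0.57 in SD at 3 wk and −0.99 ± 0.61 in LD at 8 wk (SD, n = 4 each). The 4 SD arrays at 8 wk, between 0.37 and 1.65, lay above all arrays of both other groups. Fah over Hpd was 6.49 ± 0.55 in SD at 8 wk, against 4.30 ± 1.18 in SD at 3 wk and 4.57 ± 0.63 in LD at 8 wk (SD, n = 4 each). It was again without overlap, though the SD array of slide 1 at 3 wk, at 5.71, came close to the lowest SD array at 8 wk, at 5.76. Hpd over Tat was −5.21 ± 0.29 in SD at 8 wk, against −5.40 ± 0.75 in SD at 3 wk and −5.56 ± 0.34 in LD at 8 wk (SD, n = 4 each). The groups overlapped in Hpd over Tat, with differences between means of 0.19 and 0.35.

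**Figure D4:**
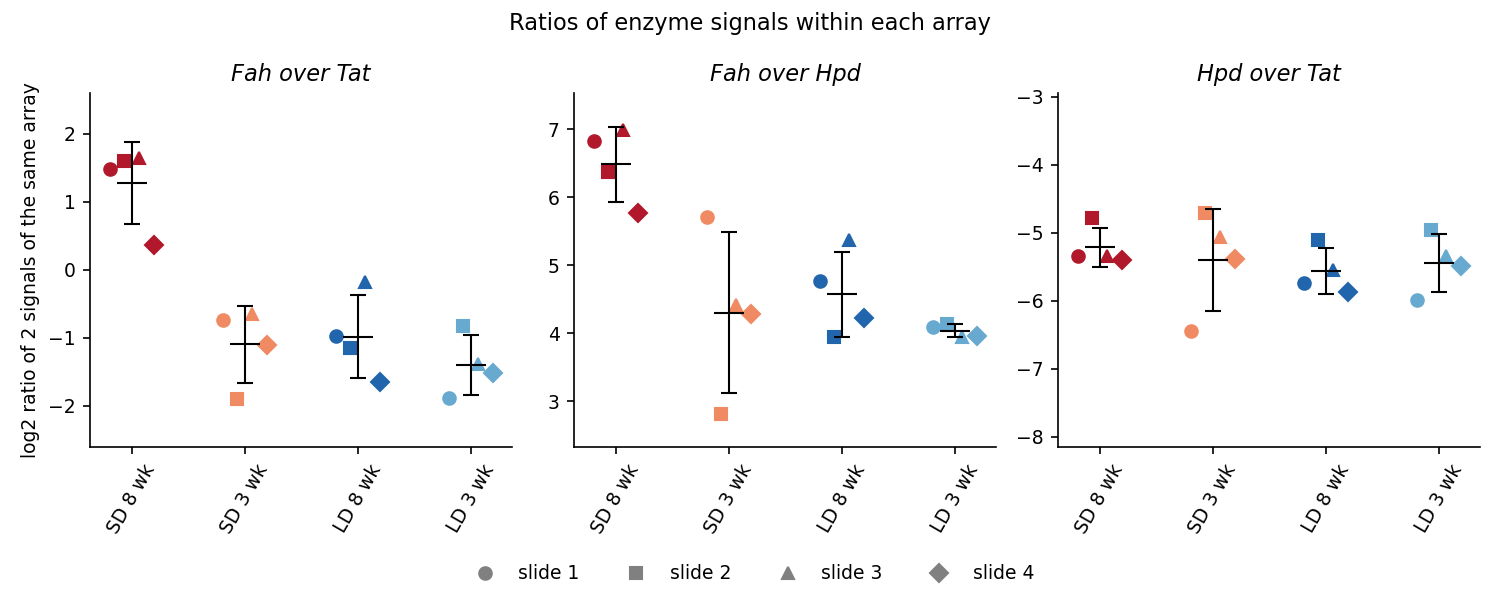
Log2 ratio of the signals of 2 enzymes on the same array (vertical axis) in the 4 groups, with the mean and SD as black bars and marker shapes for slides. Fah over Tat and Fah over Hpd are highest on the 4 SD arrays at 8 wk, and Hpd over Tat overlaps between groups.

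Across arrays the pattern of Fah was close to that of Hgd and those of Hpd and Tat were not. These correlations are descriptions, since they rest largely on the SD arrays at 8 wk and the arrays of a slide share their hybridisation. Pearson r with Hgd over 15 arrays was 0.903 for Fah, 0.324 for Hpd and 0.121 for Tat. Among the 20142 other identifiers ranked by r with Hgd, Fah was at rank 50, Hpd at rank 3606 and Tat at rank 6540. With slide means removed r was 0.880 for Fah, at rank 144. Over the 12 arrays outside SD at 8 wk, Hgd and Fah gave a Pearson r of 0.380 and a Spearman rho of 0.538. The identifiers nearest to Hgd were NM_013467 (r = 0.955) and NM_030026 (r = 0.952). With slide means removed they were at ranks 37 and 28, so their place at the head of the list holds without that adjustment only. NM_013467 differed by 1.73 between SD at 8 wk and SD at 3 wk, by 1.17 between SD and LD at 8 wk and by 0.80 between LD at 8 wk and LD at 3 wk. NM_030026 differed by 1.34, 0.99 and 0.69 in the same comparisons. Both were picked for their likeness to Hgd on these arrays, so their sharing of its order of groups is not a separate result. Their changes were far smaller on the log2 scale.

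**Figure D5:**
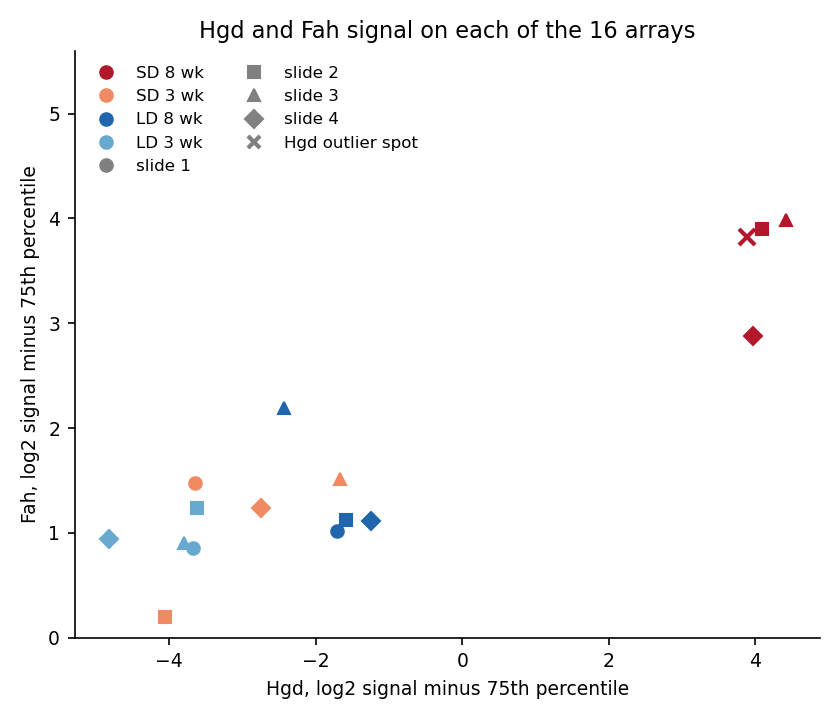
Fah level (vertical axis) against Hgd level (horizontal axis), both log2 signal minus the array's 75th percentile, on each of the 16 arrays, with colours for groups and shapes for slides. The cross is the SD array at 8 wk whose Hgd spot was marked as an outlier. The 4 SD arrays at 8 wk lie apart at the upper right, and among the other 12 the Fah level spans 0.20 to 2.19.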

How the data were processed

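Signals came from 1-colour arrays of Siberian hamster ovaries read with Agilent Feature Extraction 10.5.1.1, per the file headers. The deposited processed signals are linear intensities, background corrected and detrended within the array by the authors' scanner software, with flags for outlier spots and for spots well above background, per the file headers. A deposited value table held the same intensities within 0.5% in all but 4 of 694064 cells.

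Outlier spots were left out, spots of a probe averaged, and log2 levels set relative to the array's 75th percentile, which ran from 269 to 1007. The brightest probe stood for an identifier. All 16 arrays entered 1 fit with limma 3.58.1 (lmFit, then eBayes with an intensity trend) in R 4.3.3, with a threshold of 0.05. The fit was tested on simulated data. The labels give each sample an animal code of its own, and the 4 arrays a group limit the precision. Replicates were numbered in accession order, which in each group is the order of slides. Alternatives covered scaling, filters, background, slide as a block, the value table, leaving out each array, and, added after the data were seen, plain background subtraction with an offset of 50, the percentile over all spots, and the ratios.

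The members and lists were chosen with earlier results of these data known. The named transcripts were to be the members and those whose levels correlate best with a member and have a symbol. As no identifier was paired with a symbol here, only the 2 nearest Hgd are named, by identifier. The lists of related pathways and cell types could not be matched and were not tested. Probe sequences are not used here.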

Additional observations from a re-analysis of the deposited data

Results flagged for a closer look

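In 3 of the 19 groups of arrays checked, a single array stood further from its group than Dixon's criterion at 95% allows, which chance gives in about 1 in 20 groups. For Fah in SD at 8 wk, the array of slide 4 at 2.88 lay off the others at 3.82 to 3.98, with a gap of 0.856 of the range. For Fah in LD at 8 wk, the array of slide 3 at 2.19 lay above the others at 1.02 to 1.12, with a gap of 0.913 of the range. Each lessened the Fah difference between SD and LD at 8 wk. For Hgd in LD at 3 wk, the array of slide 4 at −4.83 lay below the others at −3.79 to −3.61, with a gap of 0.852 of the range, on spots near background. The age change of Hgd was more positive in SD than in LD by 4.95, a value that holds the SD change on which the set was chosen.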

How the results depend on the processing

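The Fah calls held in 29 of 30 tests in each of SD at 8 wk against SD at 3 wk and SD against LD at 8 wk. They were lost with normexp on median signals, which called 0 of the 3 enzymes in both, with Fah at 2.07 (limma adjusted p = 0.379) and 1.98 (limma adjusted p = 0.903). That correction called 16 identifiers in SD at 8 wk against SD at 3 wk, against 1844 in the main analysis. In SD against LD at 8 wk it called 2, against 193, so neither lost call singles out Fah. Its fitted background mean was under −200 on 5 of 16 arrays, against −26.7 to 11.1 on the others. Plain subtraction with an offset of 50, added after seeing the data, gave 2.52 (limma adjusted p = 0.000125) and 2.29 (limma adjusted p = 0.00127) for Fah, and 6.18 and 5.46 for Hgd. Normexp, with the same offset, gave 5.57 and 4.83 for Hgd. Leaving out each array in turn, 1 to 1 enzyme was called in both comparisons, 0 to 0 in LD between ages and at 3 wk, and 0 to 1 in the test of the difference of age changes, where slide as a random block also gave 1 (and 86 identifiers, against 12 without it). Fah ran from 2.24 to 2.79 in the first comparison and from 2.17 to 2.56 in the second, called in 16 of 16 fits of each, and Hgd in LD between ages from 1.95 to 2.46, also called in 16 of 16.

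Signs that turned belonged to differences that did not pass. With normexp, Hpd in LD between ages was 0.11, and at 3 wk Fah was −0.052 and Hpd 0.036. Without slide 1, Tat was 0.19 in LD between ages, −0.081 between SD and LD at 8 wk and −0.010 in the difference of age changes, and at 3 wk Fah was −0.043 and Hpd 0.14. Without single arrays, Tat ran from −0.18 to 0.074 and Hpd from −0.29 to 0.016 in LD between ages, Tat from −0.091 to 0.16 between SD and LD at 8 wk, and at 3 wk Fah from −0.013 to 0.42 and Hpd from −0.34 to 0.20. The cause of these turns was not tested.

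The labels give no replicate numbers, and arrays were paired across groups by their shared slide. With slide as a fixed block no call among the 3 enzymes changed, while identifiers called numbered 4655, 2394 and 528, against 1844, 601 and 193 without it, for SD between ages, LD between ages and SD against LD at 8 wk. Nearness to background limits Hpd, Gstz1 and, at 3 wk above all, the low side of Hgd.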
